A study of Mus musculus with 11 samples.

Results

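Epithelial junction genes are described here across mouse oviduct, ovarian surface epithelium (OSE), the organoids grown from them, and tumors grown from edited oviductal organoids. The group was taken by name and holds 10 of the 18305 genes of the count table: Cdh1, Epcam, Cldn3, Cldn4, Cldn6, Cldn7, Ocln, Dsp, Esrp1 and Ovol2. All 10 symbols were found in the table, and each was followed through all 27 libraries.

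Epithelial cells are held to each other by adherens junctions, tight junctions and desmosomes. Cdh1 encodes E-cadherin, the adhesion receptor of adherens junctions, and Epcam encodes an epithelial cell adhesion molecule. The claudins (Cldn3, Cldn4, Cldn6 and Cldn7) and occludin (Ocln) are membrane proteins of tight junctions, which seal the space between cells, and Cldn6 is best known from embryonic epithelium. Dsp encodes desmoplakin, which anchors desmosomes to keratin filaments. Esrp1 is a splicing regulator of epithelial cells and Ovol2 is a transcription factor that maintains the epithelial state. Several of these genes are known to be repressed by the SNAIL, ZEB and TWIST transcription factors when epithelial cells turn mesenchymal, and serous ovarian carcinomas usually stain for E-cadherin, EpCAM and claudins.

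RNA came from 3 oviduct tissue samples and 3 OSE tissue samples of C57BL/6 mice, 3 oviductal and 2 OSE organoid lines of the same strain, 3 oviductal organoid lines of mice that express Cas9 and GFP in all cells (Cas9-GFP organoids), 3 oviduct-TBP clones and 6 TBP tumors, and from 4 organoid lines derived from such tumors (T1-mes and T3-mes, T2-epi with T4-epi). TBP clones are clonal Cas9-GFP organoids edited in tumor suppressor genes, Trp53 and Brca1 among them, and selected with Nutlin-3a. The 3 clone libraries may not be 3 separate clones, since fewer clones are described for each combination of mutations. Complete loss of Brca1 was not obtained in any clone. The tumors grew under the skin of NSG mice, which lack lymphocytes but keep stroma and myeloid cells, so that a tumor library holds host RNA as well. T1-mes and T2-epi came from adjacent tumors with different histology, mesenchymal and epithelial, while the mouse of origin is not given for the remaining pair, and the labels do not tie the 6 tumors to the 4 organoid lines. The mes cultures are described in the study as holding fibroblast-like cells next to cystic organoids, both GFP-positive. Each wild-type organoid line was made from pooled mice, and a further OSE organoid line had been left out by the authors.

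Levels are counts relative to library size (CPM), scaled with the TMM factors of edgeR over the 27 libraries. The shallowest library was TBP clone 1 with 82239 counts and the deepest TBP clone 3 with 4531767, and a count of 0 allows up to 3 counts, which is 33.5 CPM in TBP clone 1 and at most 5.18 CPM in any other library. Values of 0 in TBP clone 1 therefore carry little weight. Trp53, edited in the clones, was at 34.5 to 61.0 CPM in the Cas9-GFP organoids, at 0, 0.536 and 5.02 CPM in TBP clones 1, 2 and 3, and at 4.37 to 9.22 CPM in the 4 tumor-derived lines. In the 6 tumors, which hold unedited host cells, Trp53 was at 18.3 to 57.1 CPM, above every clone and overlapping the Cas9-GFP organoids.

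In the mouse genome (GRCm38, GENCODE annotation) Cdh1 lies on chromosome 8 (chr8:106603351-106670246, plus strand) and Epcam on chromosome 17 (chr17:87635979-87651129, plus). Cldn3 (chr5:134986214-134987472, plus) and Cldn4 (chr5:134945119-134946934, minus) are neighbors on chromosome 5 with 39279 bases between them. Cldn6 is at chr17:23679249-23682446 (plus), Cldn7 at chr11:69964779-69967885 (plus), Ocln at chr13:100496507-100552718 (minus), Dsp at chr13:38151294-38198577 (plus), Esrp1 at chr4:11331933-11386783 (minus) and Ovol2 at chr2:144305175-144332146 (minus). All are protein-coding. Cldn3, Dsp, Esrp1 and Ovol2 are each overlapped by a gene on the opposite strand (Wbscr25, Gm10129, Gm26663 and 1700108N11Rik). The authors counted reads in the right orientation only.

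Promoter sequence is shown because several of the repressors named above bind the E-box CAGGTG. Windows of 250 bases before and 50 bases after the transcription start were given by RefSeq (GRCm38.p6) for 8 of the 10 genes. CAGGTG, or its reverse complement CACCTG on the other strand, was found in 7 of these 8 genes, against 22.7% of the 13249 genes of the count table that have a window. The windows of the 8 genes held 12 sites, 7 before the start and 5 after it, and Ovol2 had none. Cldn7 and Ocln each had 2 windows, and an Ocln site counted as after the start lies at 8 and -213 from the 2 starts. Cdh1 and Esrp1 had no entry. The 250 bases before the start of Epcam (chr17:87635729-87635978, plus strand, 5′ to 3′) hold the motif at positions -187 and -19, in capitals.
Epcam: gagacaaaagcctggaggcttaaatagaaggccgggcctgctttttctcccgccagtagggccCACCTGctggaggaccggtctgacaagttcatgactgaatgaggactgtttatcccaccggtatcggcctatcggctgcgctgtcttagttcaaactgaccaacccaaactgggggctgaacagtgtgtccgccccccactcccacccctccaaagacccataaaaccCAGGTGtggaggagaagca
For the other 6 genes with a match, 1 site each is printed on the strand of the gene with 10 flanking bases on either side and the motif in capitals. The positions of the motif relative to the RefSeq start are 32 for Cldn3 (chr5:134986235-134986260), -14 for Cldn4 (chr5:134946933-134946958), -93 for Cldn6 (chr17:23679262-23679287), -57 for Cldn7 (chr11:69965354-69965379), -68 for Ocln (chr13:100552551-100552576) and 4 for Dsp (chr13:38151287-38151312).
Cldn3: aagccacaggCAGGTGcaggggcagt
Cldn4: ttaactgcagCACCTGtggccgccct
Cldn6: gaaacgcacgCAGGTGgctatcgccg
Cldn7: acttccggttCAGGTGagtgtccctt
Ocln: aggggctcggCAGGTGggtcccagcg
Dsp: agaagccgacCAGGTGtggcctgggc
The printed sites of Cldn3, Cldn6, Cldn7, Ocln and Dsp lie within an annotated exon of their gene, and those of Epcam and Cldn4 do not. For the printed sites of Cldn6, Cldn7 and Ocln the RefSeq start lies inside the gene. These sites precede that start but lie after the gene start given above. A match describes these letters only, and binding was not measured.

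Across all libraries the genes fell into a large set with like profiles and a pair that stood apart. Cdh1 had more than 3 counts in all 27 libraries, Epcam and Cldn4 in 25, Dsp in 24, Ocln and Esrp1 in 23, Cldn7 in 20, Cldn3 in 19 and Ovol2 in 18. Cldn6 had more than 3 counts in 4 libraries only, with 8.46 and 42.0 CPM in oviductal organoids 2 and 3, 12.1 CPM in TBP clone 3 and 4.74 CPM in Tumor 3. On the log2 CPM scale over the 27 libraries, the median Pearson correlation with the other 9 genes was highest for Cldn7 (0.871) and lowest for Dsp (0.431) and Cldn6 (0.314). The libraries share groups and differ in depth, and these correlations are descriptive. The genes outside the group whose profile was most like the mean of the 10, among 8685 genes with a mean of at least 10 CPM, were Spint2 (r = 0.950), Elf3 (0.945), Alcam (0.928), St14 (0.916), 2610528J11Rik (0.916), Gm5480 (0.911), Marveld3 (0.910) and Bspry (0.909) over 27 libraries.

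**Figure D1:**
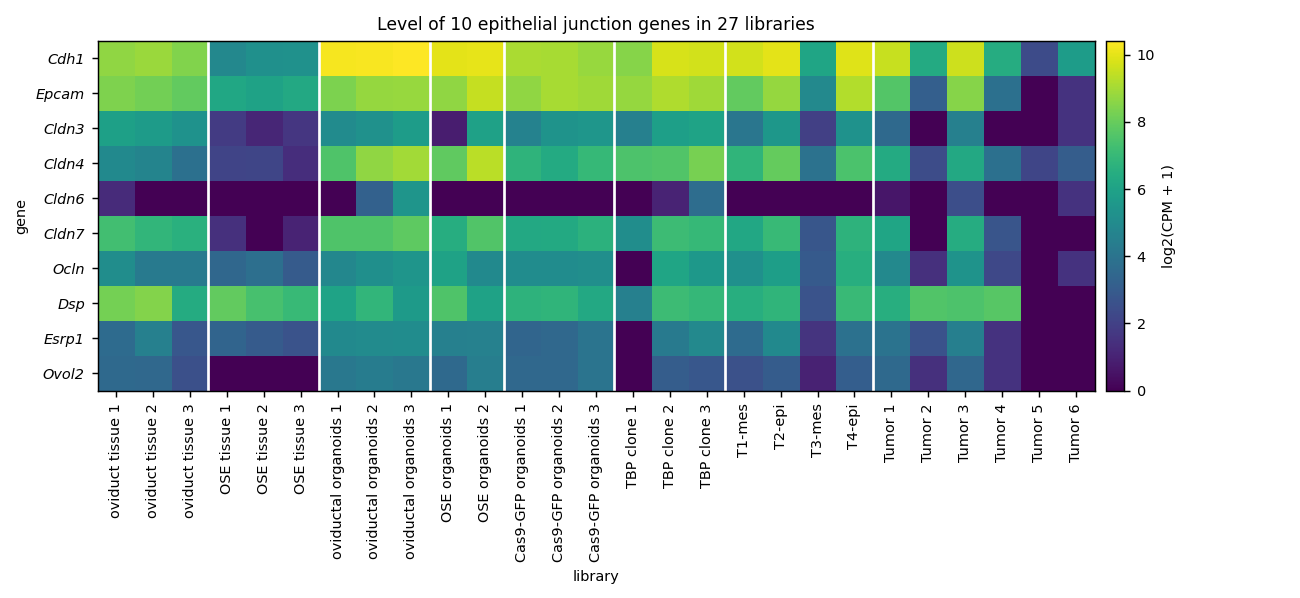
Heat map of log2(CPM + 1) for the 10 genes (rows) in 27 libraries (columns), with white lines between groups. OSE tissue, T3-mes and Tumors 2, 4, 5 and 6 are dark for most genes, Dsp stays bright in OSE tissue and in Tumors 2 and 4, and Cldn6 has more than 3 counts in 4 libraries.

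Ordered by median level, Cdh1 was highest in oviductal organoids (1227 to 1364 CPM), then came OSE organoids (1025 and 1047 CPM) and epi tumor organoids (951 and 1018 CPM), and these 3 ranges did not overlap each other. TBP clones (369 to 873 CPM), Cas9-GFP organoids (451 to 544 CPM), mes tumor organoids (67.9 and 826 CPM), oviduct tissue (349 to 457 CPM), TBP tumors (4.20 to 779 CPM) and OSE tissue (27.9 to 37.7 CPM) came next, and each of these ranges overlapped its neighbor. The epi lines were above the highest clone. Epcam was more even, from a median of 566 CPM in OSE organoids to 291 CPM in oviduct tissue over the 6 highest groups, and neighbors among these 6 overlapped. Dsp had another order, with oviduct tissue (83.1 to 353 CPM) and OSE tissue (127 to 239 CPM) first and mes organoids (5.34 and 90.2 CPM) last, and every pair of neighbors overlapped.

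The comparison of mes with epi tumor organoids asked whether tumor lines of different histology differ in these genes. Cdh1 had 826 CPM in T1-mes but 67.9 CPM in T3-mes, whereas the epi lines T2 and T4 had 1018 and 951 CPM. Epcam was at 238 and 28.6 CPM in the mes lines and at 434 and 592 CPM in the epi lines. T3-mes was thus far below the other 3 lines, while T1-mes lay just under the epi lines for Cdh1 and further under them for Epcam. Whether fewer epithelial cells or less RNA per cell lowers such a value cannot be told apart in bulk samples.

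The tight junction genes showed the same order. Cldn4 had 111 CPM in T1-mes but 14.1 CPM in T3-mes, whereas the epi lines T2 and T4 had 247 and 176 CPM. In the same order, Cldn7 was at 74.3, 5.82, 127 and 104 CPM and Cldn3 at 15.9, 2.91, 45.1 and 38.8 CPM. Ocln followed, with 36.9 and 6.79 CPM in the mes lines below 56.5 and 92.7 CPM in the epi lines. Cldn6 had 0 counts in all 4 lines, which allows up to 1.46 CPM in each.

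Dsp had 90.2 and 5.34 CPM in the mes lines, below the epi lines T2 and T4 with 112 and 133 CPM. Of the regulators, Esrp1 had 11.4 and 1.94 CPM in the mes lines against 29.4 and 13.6 CPM in the epi lines. Ovol2 had 5.01 and 0.970 CPM against 7.12 and 7.76 CPM, where 0.970 CPM stands for 2 counts. In every one of these 9 genes both mes lines were below both epi lines, and the same held for 22.8% of the 9775 genes tested. Relative to the mean of the epi lines, T3-mes kept a median of 6.90% over the 9 genes (4.36% for Dsp to 13.0% for Ovol2), and T1-mes a median of 52.9% (38.0% for Cldn3 to 83.9% for Cdh1).

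**Figure D2:**
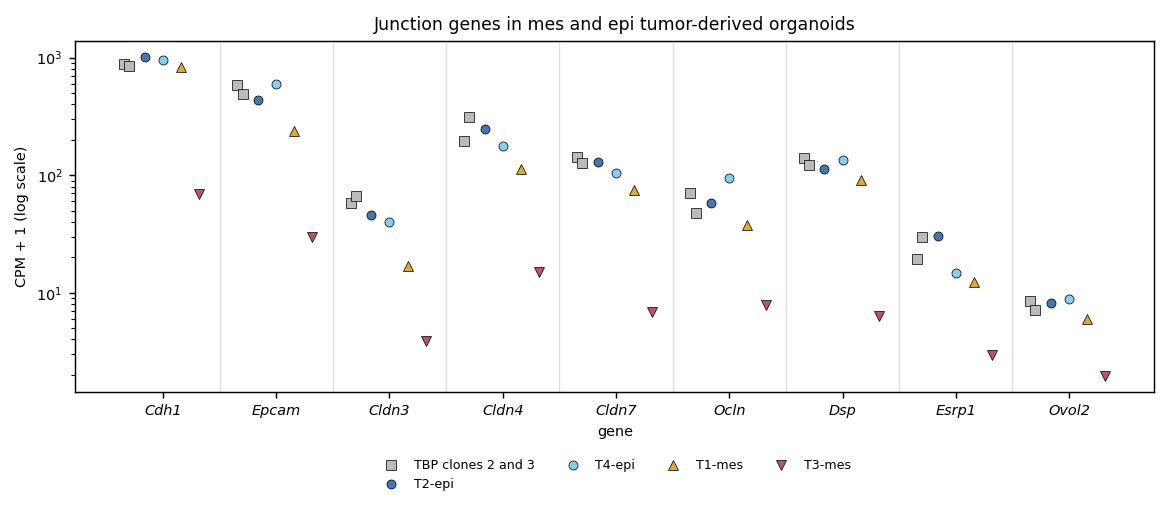
CPM + 1 on a log scale for 9 genes (Cldn6 is left out) in the mes lines, the epi lines and, for reference, TBP clones 2 and 3; each symbol is 1 library. T3-mes lies at 4.36% to 13.0% of the mean of the epi lines, whereas T1-mes lies between T3-mes and the epi lines in all 9 genes.

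None of the 9 genes tested passed the edgeR test over all genes at an adjusted p of 0.05, while 0.123% of all genes tested were called lower and 1% higher in mes lines. At an unadjusted p under 0.05 there was 1 (Cldn3), and DESeq2 called 0. The log2 fold changes were -1.15 for Cdh1 (SE 0.99, adjusted p = 0.667), -1.95 for Epcam (SE 0.90, adjusted p = 0.401) and -2.14 for Cldn3 (SE 0.75, adjusted p = 0.287), and all 9 were negative. Their median was -1.68, against 0.02 over all genes tested. Without T1-mes, 8 of the 9 genes were called lower in T3-mes than in the epi lines, by 10.9-fold (Esrp1) to 23.0-fold (Dsp), with 6.8% of all genes called lower and 7.16% higher. Ovol2 was the exception (7.36-fold, adjusted p = 0.168). A single mes library was then assumed to vary as the epi lines do. Without T3-mes, 0 of 9 were called and the epi lines were 1.20-fold (Cdh1) to 2.64-fold (Cldn3) higher.

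The EMT transcription factors went the other way. Zeb1, a repressor of Cdh1, had 62.0 CPM in T1-mes with 66.0 CPM in T3-mes, and 0.475 and 0.485 CPM (1 count each) in the epi lines. Snai1 had 16.4 and 37.8 CPM in the mes lines and Twist2 25.5 and 32.5 CPM, and both had 0 counts in the epi lines. Of 5 EMT factors tested, 2 rose in mes lines (Zeb1 and Twist2, adjusted p = 0.0236 and 0.0334), next to the share of all genes called higher given above. With at most 1 count in each epi line, Zeb1 and Twist2 passed the filter on low counts through the mes lines. A call in the other direction was hardly possible for them. Vim, which encodes the mesenchymal filament vimentin, was at 397 and 760 CPM against 4.27 and 12.1 CPM. T1-mes had Zeb1 near the level of T3-mes, with Cdh1 at 826 CPM in T1-mes and 67.9 CPM in T3-mes. These are bulk cultures of fibroblast-like cells and cystic organoids, and whether the same cells hold both RNAs was not tested.

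Summed fibroblast markers were higher and summed keratins lower in both mes lines than in both epi lines. The summed level of 9 fibroblast genes was 3141 and 7554 CPM in the mes lines T1 and T3, and 31.3 and 102 CPM in the epi lines T2 and T4, while endothelial markers summed to at most 2.91 CPM in the 4 lines. The 4 simple epithelial keratins summed to 2541 and 269.7 CPM in the mes lines and to 3260.35 and 3775 CPM in the epi lines. Cdh1 relative to the summed Krt8 and Krt18 was 56.6% and 60.1% in the mes lines and 73.2% and 63.9% in the epi lines. By this ratio T3-mes was below both epi lines for 5 of 9 genes, between them for 3 and above them for 1, and T1-mes was below both for all 9. The part of cell composition in the result was not tested.

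None of the other junction lists had a gene called between mes and epi lines. Among the partners of adherens junctions 9 genes were tested and 7 pointed lower in mes lines. Ctnnb1, encoding beta-catenin, had 417 and 299.8 CPM in the mes lines, against 783 CPM in both epi lines, and Ctnna1, encoding alpha-catenin, was at 407 and 271 CPM against 575 and 554 CPM. Of 15 other tight junction genes 14 pointed lower, the polarity gene Pard3 being the exception (115 and 218 CPM against 91.6 and 76.7 CPM), and Cldn2 was at 138 and 6.31 CPM against 93.1 and 162 CPM. All 8 other desmosome genes tested pointed lower, among them Dsg2 (40.1 and 7.28 CPM against 117 and 104 CPM) and Pkp3 (51.9 and 6.79 CPM against 77.4 and 64.5 CPM). All 11 other epithelial regulators pointed lower as well, with Mal2 at 325 and 28.1 CPM against 784 and 582 CPM and Ehf at 171 and 69.9 CPM against 305 and 313 CPM. At an unadjusted p under 0.05, 4 adherens junction partners, 6 tight junction genes, 2 desmosome genes and 6 regulators were lower and 1 adherens junction partner was higher, next to 5.06% of all genes lower and 9.03% higher. DESeq2 called 2 tight junction genes and 2 regulators lower, next to 1.31% of all genes. Of all genes tested 48.8% pointed lower.

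The 6 TBP tumors were compared with the clones used to make such tumors, and they spread over the whole range of these genes. Cdh1 was at 753 CPM in Tumor 1 and 779 CPM in Tumor 3, at 82.1 CPM in Tumor 2 and 87.0 CPM in Tumor 4, and at 4.20 CPM in Tumor 5 and 53.4 CPM in Tumor 6, against 369, 873 and 843 CPM in TBP clones 1, 2 and 3. Epcam was at 199 CPM in Tumor 1, 7.87 CPM in Tumor 2, 366 CPM in Tumor 3, 13.2 CPM in Tumor 4, 0 CPM in Tumor 5 and 1.84 CPM in Tumor 6. All 6 were below the clones, which had 436 to 583 CPM. For 2 of the 9 genes tested (Epcam and Cldn4) every tumor was below every clone, and 9.86% of all genes tested did so.

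Cldn4 was at 81.3, 4.37, 76.9, 13.2, 3.55 and 7.36 CPM in Tumors 1 to 6, again below every clone (179, 193 and 310 CPM). Cldn7 was at 68.8 and 86.0 CPM in Tumors 1 and 3 and at 5.68 CPM in Tumor 4, with 0 counts in Tumors 2, 5 and 6. Cldn3 was at 10.9 and 22.4 CPM in Tumors 1 and 3, at 1.84 CPM (3 counts) in Tumor 6 and at 0 counts in the rest, and Ocln was at 28.9 and 39.6 CPM in Tumors 1 and 3 and at most 3.78 CPM elsewhere. Tumors 1 and 3 were the highest for each of these tight junction genes.

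Dsp did not follow. It was at 90.6, 189, 179 and 209 CPM in Tumors 1, 2, 3 and 4, and at 0 counts in Tumors 5 and 6, against 22.3 CPM (2 counts), 140 and 120 CPM in TBP clones 1, 2 and 3. Tumors 2 and 4, low for Cdh1 and Epcam, thus had the highest Dsp of all tumors. Esrp1 was at 14.7, 5.24, 21.7 and 1.89 CPM in Tumors 1 to 4 and Ovol2 at 10.9, 1.75, 10.2 and 1.89 CPM, and both had 0 counts in Tumors 5 and 6. In Tumor 5, 8 of the 10 genes had 0 counts at a total of 3083507 counts, and the exceptions were Cdh1 (13 counts) and Cldn4 (11 counts). In Tumor 6, 8 of 10 had 3 counts or fewer.

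**Figure D3:**
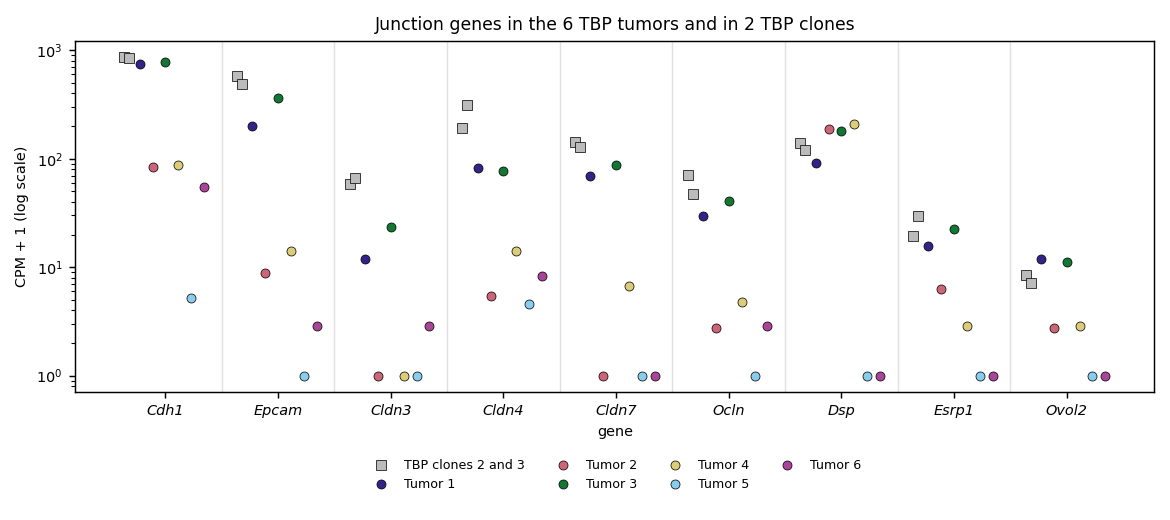
CPM + 1 on a log scale for 9 genes in each of the 6 TBP tumors and in TBP clones 2 and 3 (Cldn6 is left out); a point at 1 is a library with 0 counts. Tumors 1 and 3 lie nearest to the clones, Tumors 5 and 6 near the floor for most genes, and Tumors 2 and 4 are low for Cdh1 and Epcam but the highest of the tumors for Dsp.

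Between tumors and clones 2 of 9 genes tested fell, Cldn3 by 3.06 on the log2 scale (SE 1.07, adjusted p = 0.0493) and Cldn4 by 2.86 (SE 0.88, adjusted p = 0.0293), next to 11.7% of all genes. Epcam had a log2 fold change of -2.34 (SE 1.40, adjusted p = 0.225), Cdh1 of -1.26 (SE 1.10, adjusted p = 0.406) and Dsp of 0.08 (SE 1.33, adjusted p = 0.976). None of these 3 genes was called. Tumors and clones overlapped for Cdh1 and Dsp but not for Epcam, whose level varied widely among the tumors. The call of Cldn3 was lost with DESeq2, with RLE size factors and without any 1 of TBP clones 1, 2 and 3 and Tumors 1, 2, 4 and 6 (DESeq2 adjusted p = 0.212), and the call of Cldn4 was lost without TBP clone 2, TBP clone 3 or Tumor 4. Without TBP clone 1, the shallow library, 1 of 10 genes was called lower, next to 14.4% of all genes. Against oviduct tissue, the tissue of origin, 1 of 9 genes was lower in the tumors (Cldn3, log2 fold change -2.95, SE 1.04, adjusted p = 0.0390), next to 22.4% of all genes, and DESeq2 called 0. Every tumor was below every oviduct sample for 2 genes, Cldn3 and Cldn7, and the same held for 21.8% of all genes. The call of Cldn3 was lost without any 1 of the 3 oviduct tissue samples and without Tumor 2, 4 or 6.

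Markers of other cells differed between the tumors beside these values. The 9 fibroblast genes summed to 24477, 41814, 15706, 58225, 10948 and 20281 CPM in Tumors 1 to 6, so that the tumors with the highest sums, 2 and 4, had low Cdh1, but Tumor 5, with the lowest sum, had the lowest Cdh1. Of the myeloid markers, Ptprc was at 57.9 to 148 CPM, Emr1 at 18.6 to 114 CPM and Itgam at 52.2 to 125 CPM in the tumors, whereas in the clones Emr1 and Itgam had 0 counts and Ptprc at most 3 counts. Cd14, another marker on that list, was not specific, with 71.4 CPM or more in every clone. Cd68 and Csf1r, also on the list, were present in clones too. Cd68 overlapped, with 16.6 CPM in TBP clone 2 and 13.6 CPM in Tumor 3. Csf1r was at 7.53 to 33.5 CPM in the clones (3 counts in TBP clone 1) and at 97.6 CPM or more in the tumors. Lyz2 had 0 counts in every clone. The simple epithelial keratins summed to 1489 and 2071 CPM in Tumors 1 and 3, 173 and 80.4 CPM in Tumors 2 and 4, and 384 and 418 CPM in Tumors 5 and 6. Tumors 5 and 6 thus had Krt8 at 213 and 194 CPM while Epcam was at 0 and 1.84 CPM. Genes of stratified epithelium (Krt5, Krt14, Krt1, Krt10 and Trp63, a list chosen after the values were seen) summed to 171, 1065, 488, 1567, 5.16 and 46.0 CPM in Tumors 1 to 6, and skeletal muscle genes (Ttn, Ckm, Acta1 and Mylpf, likewise chosen) summed to 789, 165, 40.0, 413, 4664 and 2156 CPM. Among the tumors Dsp was highest where the stratified epithelium genes were highest. The clones had at most 11.2 CPM of the stratified epithelium genes and 7.50 CPM of the muscle genes. Dsp was at 140 and 120 CPM in TBP clones 2 and 3, and a link between Dsp and the stratified epithelium genes was not tested. The part of host or other cells in the result was not tested.

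The other lists were counted between tumors and clones as well, next to 11.7% of all genes lower and 20.1% higher. Of 13 other epithelial regulators tested, 6 fell and 0 rose, led by the splicing regulator Esrp2 (log2 fold change -4.09, adjusted p = 0.00368) and the protease inhibitor Spint1 (-4.07, adjusted p = 0.0105). Of 17 other tight junction genes 3 fell, Cldn23 and Mpp5 with the largest changes (-4.37 and -2.30, adjusted p = 0.00857 and 0.000695), and Cldn1 rose (5.87, adjusted p = 0.0238). Of 8 other desmosome genes Pkp2 fell (-2.30, adjusted p = 0.00126). Of 11 adherens junction partners 2 rose (Pvrl3 by 3.20 and Ctnnd1 by 1.31 on the log2 scale, adjusted p = 0.0267 and 0.00935) and Mllt4, encoding afadin, fell (-1.11, adjusted p = 0.0302). Of 6 EMT transcription factors 5 rose and 0 fell. The shares lower among the tight junction genes (3 of 17), desmosome genes (1 of 8) and adherens junction partners (1 of 11) were near that of all genes. The median log2 fold change was -2.62 for the regulators, -1.62 for the tight junction genes and 0.16 over all genes tested.

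Oviduct and OSE tissue differed in most of the genes. Cdh1 was at 406, 457 and 349 CPM in the 3 oviduct samples and at 27.9, 36.1 and 37.7 CPM in the 3 OSE samples. Epcam was at 332, 291 and 238 CPM in oviduct and at 71.9, 62.9 and 78.0 CPM in OSE. Every oviduct sample was above every OSE sample for both genes.

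Of the claudins tested and Ocln, Cldn7 had the largest fold change between the tissues, with 152, 113 and 96.5 CPM in oviduct and 1.69, 0 and 1.06 CPM (at most 2 counts) in OSE. Cldn3 was at 58.8, 51.3 and 39.1 CPM against 2.54, 1.16 and 2.12 CPM, and Cldn4 at 29.7, 25.0 and 13.4 CPM against 3.38, 3.49 and 1.59 CPM. Ocln was closer, at 33.4, 18.4 and 18.3 CPM against 10.2, 12.8 and 6.90 CPM. The groups did not overlap for any of these 6 genes (Cdh1 and Epcam included), and for 29.3% of all genes every oviduct sample was higher.

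Dsp overlapped, at 297, 353 and 83.1 CPM in oviduct and 239, 164 and 127 CPM in OSE, and oviduct sample 3 was below all OSE samples. In that sample the stratified epithelium genes, a list chosen after values were seen, summed to 4.89 CPM, against 131 and 301 CPM in the other oviduct samples. None of those genes passed the filter on low counts between OSE organoids and OSE tissue, which had the Dsp values above. A link with Dsp was not tested. Ovol2 had 10.9, 10.5 and 4.89 CPM in oviduct and 0 counts in the 3 OSE samples, and was at least 3.45-fold higher in oviduct on a floor of 3 counts per library. Ovol2, Esrp1 and Cldn6 did not pass the filter on low counts.

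Of the 7 genes tested 6 were higher in oviduct tissue, next to 26.9% of all genes. The log2 fold change was 3.59 for Cdh1 (SE 0.19, adjusted p = 1.37e-09), 2.03 for Epcam (SE 0.17, adjusted p = 1.6e-07), 4.59 for Cldn3, 3.16 for Cldn4, 6.79 for Cldn7 (SE 0.39) and 1.40 for Ocln (SE 0.35, adjusted p = 0.0038). Cldn7 had 0 to 2 counts and Cldn3 1 to 4 counts in each OSE sample, so that the sizes of both, and those for Cldn7 given below from the same samples, depend on the handling of low counts. Cldn3, Cldn7 and Cldn4, which had 3 or 4 counts in each OSE sample, passed the filter on low counts through the oviduct samples. A call in the other direction was hardly possible for them. In a fit of all 27 libraries Epcam, Cldn4 and Ocln were not called (adjusted p = 0.250, 0.0607 and 0.389). Dsp was not called (0.50, SE 0.37, adjusted p = 0.271), and was called without oviduct sample 3 (log2 fold change 0.91). Ocln was not called without oviduct sample 1. OSE tissue also carried ovarian cells: granulosa markers summed to 3353 to 4043 CPM and steroidogenic markers to 6156 to 7535 CPM, against 491 to 667 CPM for mesothelial and OSE markers. The part of these cells in the differences was not tested.

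The other lists were read against 26.9% of all genes higher and 24.3% lower in oviduct tissue. All 9 other epithelial regulators tested were higher in oviduct, with Mal2 and Rab25 at the top (log2 fold change 7.50 and 6.51), as were 6 of 13 other tight junction genes (Cldn2, at 0 counts in all OSE samples, and Cldn8, 6.41) and 4 of 6 other desmosome genes (Pkp1, at 0 counts in all OSE samples, and Pkp3, 4.33). Mal2, Rab25, Cldn8 and Pkp3 had 0 to 3 counts in each OSE sample, so that their sizes depend on the handling of low counts. Along with Cldn2 and Pkp1 they passed the filter on low counts through the oviduct samples. A call in the other direction was hardly possible for these genes. The adherens junction partners were divided, with 3 of 10 higher (Jup 1.71 and Ctnnb1 0.51) and 3 lower (Pvrl1 -2.38 and Pvrl3 -0.99).

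In organoids none of the genes was called between the origins, and the OSE lines differed from each other in several of them. Cdh1 was at 1227, 1257 and 1364 CPM in oviductal organoids and at 1025 and 1047 CPM in OSE organoids, and Esrp1 at 29.6, 31.3 and 32.2 CPM against 22.1 and 22.8 CPM, every oviductal line being higher, which held for 15.4% of all genes. Epcam (329, 437 and 444 CPM against 413 and 719 CPM), Cldn4 (185, 410 and 495 CPM against 234 and 649 CPM), Ocln (27.7, 35.5 and 42.0 CPM against 62.6 and 29.9 CPM) and Dsp (64.8, 116 and 49.9 CPM against 185 and 62.3 CPM) overlapped. Cldn7 (185, 186 and 224 CPM against 90.1 and 189 CPM) and Ovol2 (17.2, 19.5 and 17.1 CPM against 10.7 and 20.8 CPM) overlapped too.

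Cldn3 set the OSE organoid lines apart from each other, with 1 count in OSE organoids 1 and 121 counts in OSE organoids 2 (0.763 and 61.3 CPM), while the oviductal lines had 31.9, 38.1 and 53.8 CPM. Secretory markers of the oviduct summed to 62.6 CPM in line 1 but to 3422 CPM in line 2, and mesothelial and OSE markers to 2248 and 549.6 CPM. Cldn6 had 0 counts in both OSE lines and in oviductal line 1. None of the 10 genes passed the edgeR test, next to 0.0864% of all genes called higher and 0% lower in oviductal organoids. At an unadjusted p under 0.05 there was 1 (Cldn6), and DESeq2 called 0. Without OSE organoids 2, 2 genes were called higher in oviductal organoids (Cldn3 and Cldn7, log2 fold change 5.64 and 1.17), with 8.73% of all genes called higher.

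No other junction list had a called gene between the organoids. The 2 most abundant genes of each list were Ctnnb1 and Ctnna1 (log2 fold change -0.04 and 0.04), Cldn10 and F11r (3.15 and -0.73), Dsg2 and Perp (-1.31 and 0.05), and Mal2 and Elf3 (0.42 and 0.67). Cldn10 was at 389 to 415 CPM in oviductal organoids and at 2.29 and 87.1 CPM in OSE organoids 1 and 2, so that the OSE lines differed in this claudin as well. At an unadjusted p under 0.05, 1 tight junction gene and 1 regulator were higher and 1 adherens junction partner, 3 tight junction genes, 1 desmosome gene and 1 regulator were lower, next to 6.46% of all genes higher and 4.99% lower. DESeq2 called 1 tight junction gene lower, next to 0.843% of all genes.

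**Figure D4:**
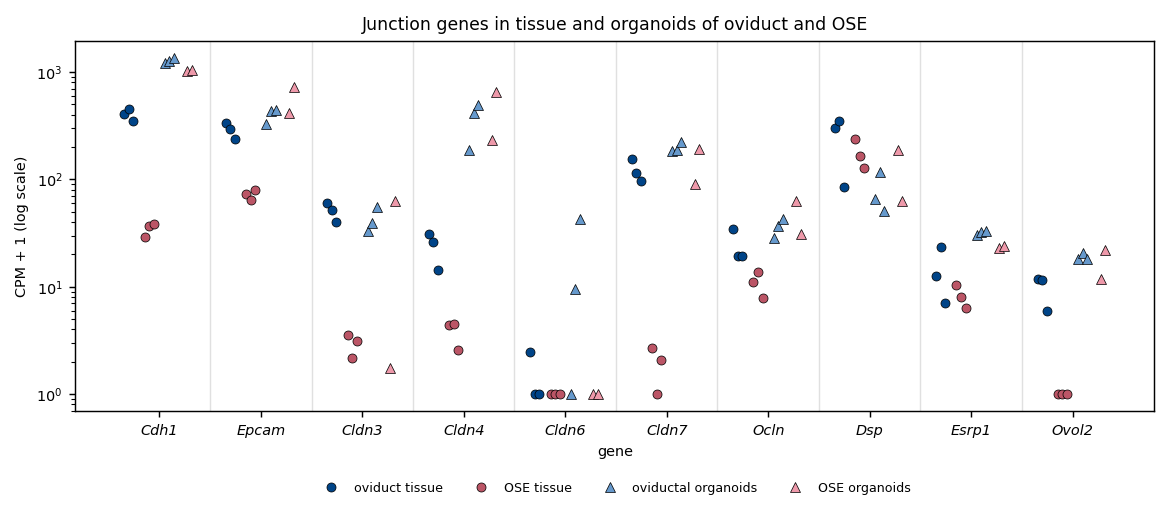
CPM + 1 on a log scale for the 10 genes in oviduct tissue (n = 3), OSE tissue (n = 3), oviductal organoids (n = 3) and OSE organoids (n = 2); each symbol is 1 library. OSE tissue is lowest for Cdh1, Epcam, Cldn4, Cldn7 and Ocln, and OSE organoids lie at or near the oviductal organoids in all of these.

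The 2 origins changed unequally from tissue to organoid. In OSE organoids 7 of 8 genes tested were higher than in OSE tissue, next to 14.5% of all genes: Cdh1 (log2 fold change 4.95, SE 0.27, adjusted p = 0.000328), Epcam (3.02, SE 0.31), Cldn4 (7.39, SE 0.61), Cldn7 (7.03, SE 0.62), Ocln (2.25, SE 0.45, adjusted p = 0.00919), Esrp1 (1.68, SE 0.40, adjusted p = 0.0179) and Ovol2, which was at least 6.19-fold higher. Every OSE organoid line was above every OSE tissue sample for these 7 genes and below for 0, against 25.8% and 33.8% of all genes. Cldn4, Cldn7 and Ovol2 had at most 4 counts in each OSE tissue sample. They passed the filter on low counts through the organoids, so that a call in the other direction was hardly possible. In a fit of all 27 libraries Epcam, Ocln and Esrp1 were not called (adjusted p = 0.0956, 0.124 and 0.248). Dsp was not called (-0.51, SE 0.49), and was called lower without OSE organoids 1 (log2 fold change -1.44). In oviductal organoids 4 of 9 genes were higher than in oviduct tissue, next to 18.7% of all genes, and 1 was lower, next to 24.2%. Cldn4 rose most (log2 fold change 3.95, SE 0.39, adjusted p = 1.09e-05), followed by Cdh1 (1.65, SE 0.17), Esrp1 (1.22, SE 0.38, adjusted p = 0.0210) and Cldn7 (0.69, SE 0.20, adjusted p = 0.0136). Dsp fell (-1.70, SE 0.44, adjusted p = 0.0079), although its groups overlapped. A fit of all 27 libraries left 1 gene higher (Cldn4, adjusted p = 0.00409) and 0 lower, and Cdh1, Esrp1, Cldn7 and Dsp were not called (adjusted p = 0.246, 0.373, 0.699 and 0.306). Epcam (0.47), Ovol2 (0.97), Ocln (0.52) and Cldn3 (-0.30) were not called. Every organoid line was above every tissue sample for 5 genes (the 4 called and Ovol2) and below for 0, against 25.9% and 28.7% of all genes.

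The oviduct-to-OSE contrast in organoids, minus the same contrast in tissue, was tested as an interaction over the 11 libraries. It rests in part on the OSE organoid lines, which differed from each other in Cldn3 and in secretory markers. It was negative for all 9 genes with an estimate and called for 5 of them, next to 11.7% of all genes. On the log2 scale it was -3.19 for Cdh1 (SE 0.28, adjusted p = 3.26e-05), -2.44 for Epcam (SE 0.37, adjusted p = 0.00138), -3.33 for Cldn4 (SE 0.83, adjusted p = 0.0222), -6.22 for Cldn7 (SE 0.62, adjusted p = 0.000101) and -6.41 for Ovol2 (SE 1.15, adjusted p = 0.00611). The size for Ovol2 rests on 0 counts in OSE tissue and is not a bound. Cldn3 (-4.17, adjusted p = 0.0514), Ocln (-1.62), Dsp (-1.06) and Esrp1 (-0.36) were not called. Granulosa, steroidogenic and fibroblast markers, which summed to 1733 to 7535 CPM in OSE tissue, were at or below 39.0 CPM in OSE organoids for each list, and their part was not tested.

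The other lists differed in how many genes were called between organoid and tissue, read against 14.5% of all genes higher and 18.6% lower for OSE, and 18.7% higher and 24.2% lower for oviduct. In OSE organoids all 10 other epithelial regulators tested were higher than in OSE tissue (Mal2 8.94 and Rab25 7.95 on the log2 scale), as were 7 of 8 other desmosome genes (Pkp1, from 0 counts in tissue, and Pkp3, 5.75), 11 of 17 other tight junction genes (Cldn2, from 0 counts in tissue, and Cldn23, 6.37) and all 4 simple epithelial keratins (Krt7 4.95 and Krt18 4.74). Mal2, Rab25 and Pkp3 had 0 to 3 counts in each OSE tissue sample. Along with Pkp1 and Cldn2 they passed the filter on low counts through the organoids. A call in the other direction was hardly possible for these genes, and their sizes depend on the handling of low counts. Cldn15 fell (-6.16), and the adherens junction partners had 4 of 11 higher (Pvrl4 6.32 and Jup 3.81) and 2 lower (Cdh3 -4.16 and Pvrl1 -3.70). In oviductal organoids 6 of 10 regulators (Spint1 2.40 and Elf3 1.92), 10 of 17 tight junction genes (Cldn10 2.82 and Pard6b 2.71), 3 of 8 desmosome genes (Dsc2 2.34 and Perp 2.12) and 3 of 10 adherens junction partners (Jup 1.83 and Pvrl2 1.36) were higher, and 3 tight junction genes were lower, led by Cldn15, which had 0 counts in the 3 organoid lines, and Cldn1 (-3.23).

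Editing of the tumor suppressor genes was compared with the unedited Cas9-GFP organoids. Cdh1 was at 369, 873 and 843 CPM in TBP clones 1, 2 and 3 and at 544, 537 and 451 CPM in the Cas9-GFP lines. Cldn4 was at 179, 193 and 310 CPM against 108, 81.2 and 124 CPM, the clones being higher in each library. Ovol2 was at 0, 7.50 and 6.16 CPM in the clones and at 10.5, 10.4 and 15.0 CPM in the Cas9-GFP lines, the clones being lower in each library, although 0 counts in TBP clone 1 allow up to 33.5 CPM. Non-overlap in each of these directions was found for 6.84% and 10.7% of all genes. None of the 9 genes was called by edgeR, next to 0.389% of all genes higher and 0.428% lower, 1 had an unadjusted p under 0.05 (Cldn4, log2 fold change 1.17, SE 0.33, adjusted p = 0.180), and DESeq2 called 0. Of the other lists none had a called gene. Their most abundant genes were Ctnnb1 (log2 fold change -0.27), Ctnna1 (0.12), Cldn2 (-0.76), Cldn10 (-0.63), Dsg2 (-0.13), Pkp3 (-0.08), Mal2 (-0.14) and Ehf (0.22). At an unadjusted p under 0.05, 2 tight junction genes and 1 regulator were higher and 1 regulator was lower, next to 5.09% and 4.87% of all genes, and DESeq2 called 0 in these lists.

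**Figure D5:**
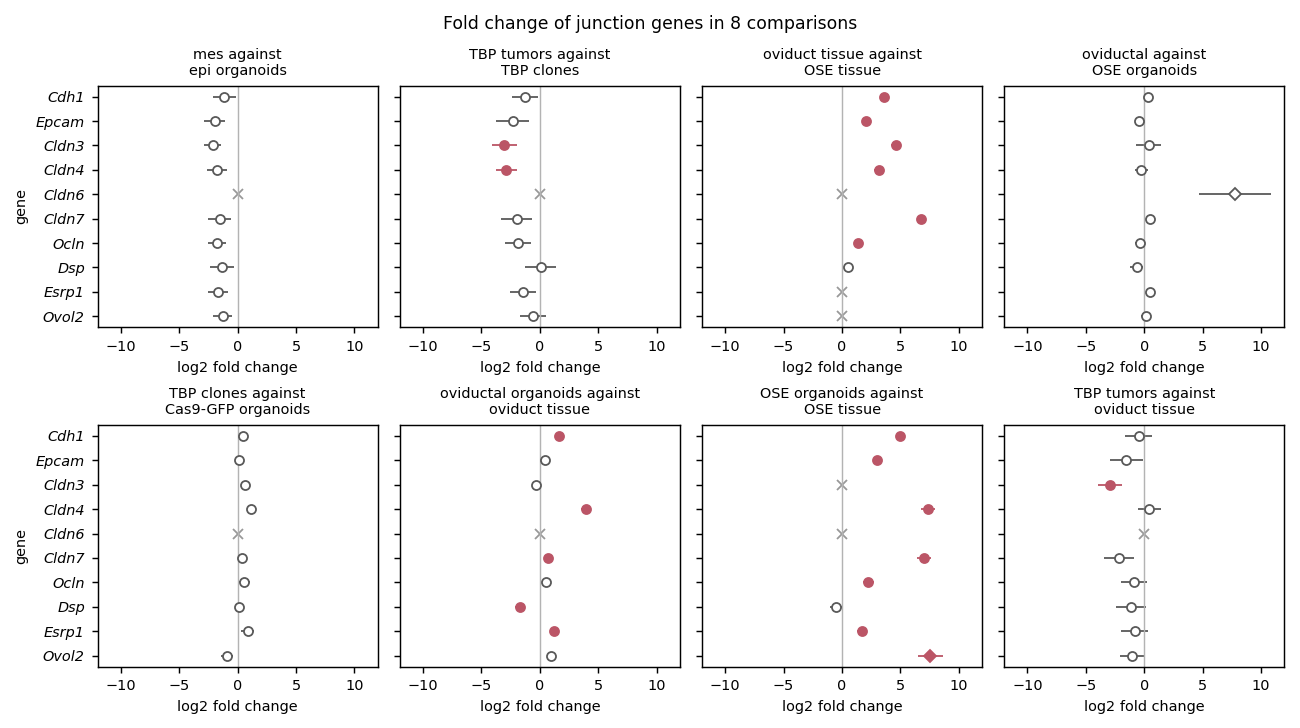
Log2 fold change (edgeR) of the 10 genes in 8 comparisons, first group over second; bars are 1 SE, filled red symbols have an adjusted p under 0.05, open symbols do not, gray crosses were not tested, and diamonds mark a comparison in which 1 group has 0 counts in every library, where the size is not a bound. The called values lie on the positive side in tissue of oviduct against OSE and in OSE organoids against OSE tissue, and none is called for mes against epi organoids.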

How the data were processed

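RNA of 27 libraries in 9 groups was sequenced by CEL-Seq2, which tags transcripts near the 3′ end. Alignment was to GRCm38, by BWA (version not given in the sources used here), and the authors deposited raw counts per gene, of uniquely mapped sense reads, without UMI correction, so that limits from counts cover counting error only. The submitters' processing notes also name DESeq2 1.18.0, for the authors' own tests. A spike-in entry with 1 count was left out. The test between groups was edgeR's quasi-likelihood F test (edgeR 4.0.16 under R 4.3.3), after filterByExpr and TMM scaling of the compared libraries, with Benjamini-Hochberg adjustment over all genes tested and a threshold of 0.05. The SE was derived from the F statistic. DESeq2 1.42.0 was run as an alternative, together with RLE size factors, no filter, a fit of all 27 libraries, a replicate block, leaving out each library, and a log2 fold change beyond 2 for mes against epi organoids. The tests were checked on simulated counts. Replicates of a group differed beyond counting error in all 33 pairs (chi-square per gene of at least 2.53). The labels do not say that libraries of a group come from separate animals, cultures or clones, and p-values measure the spread between these libraries. The genes and the lists were chosen with earlier results of these data known, and 2 lists were added after values were seen. Each list's genes named in a comparison are at most 2 called genes with the largest change in each direction or, where none was called, the 2 most abundant. Likeness was the Pearson correlation of log2 CPM (prior count 2) with the mean standardized level of the 10 genes. Figures were drawn with matplotlib 3.10.9.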

Additional observations from a re-analysis of the deposited data

Results flagged for a closer look

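The difference between oviduct and OSE was not the same in organoids as in tissue for 5 genes, by the interaction term of edgeR over 11 libraries. Organoids minus tissue, on the log2 scale, gave -3.19 for Cdh1, -2.44 for Epcam, -3.33 for Cldn4, -6.22 for Cldn7 and -6.41 for Ovol2, whose size rests on 0 counts in OSE tissue and is not a bound. Every OSE tissue sample was below every oviduct tissue sample for each of these genes, whereas the organoid groups overlapped for Epcam, Cldn4, Cldn7 and Ovol2. The count of genes called was 4 to 6 when each library was left out in turn, a check added after the values were seen. In the 6 tumors no gene had a single tumor standing apart from the rest by Dixon's test. That test looks for a single outlier and can miss tumors that lie apart in pairs, so it does not show that the tumors were alike.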

How the results depend on the processing

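With 2 mes and 2 epi lines, 2 OSE organoid lines and a clone of 82239 counts, calls of single genes turned on single libraries. Of 747 recomputed fold changes of single genes, 678 kept direction and call, 37 lost a call, 15 gained one and 17 changed sign. Genes lower in mes than epi lines numbered 0 to 8 when each line was left out, and no other alternative gave a call. Genes lower in tumors than in clones numbered 1 with DESeq2, 1 with RLE size factors and 0 to 2 with a library left out. In the fits with a library left out, 7.05% to 14.4% of all genes were called lower. Genes lower in tumors than in oviduct tissue numbered 0 with DESeq2 and 0 to 1 with a library left out, the latter next to 17.1% to 23.7% of all genes. Genes higher in oviductal than OSE organoids numbered 0 to 2 with a library left out, and without the filter on low counts 1 gene was higher in clones than in Cas9-GFP organoids. A fit of all 27 libraries left 1 gene higher and 0 lower in oviductal organoids than in oviduct tissue, and genes lower in OSE organoids than in OSE tissue numbered 0 to 1 with a library left out. The cause of these changes was not tested.

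Sign changes occurred for values that were not called, in each case with 1 library left out, and the log2 fold change then ran as follows. Between tumors and clones Dsp ran from -0.25 (with -0.11, -0.14 and -0.20 also below 0) to 0.41. Between the organoids Epcam ran from -0.83 to 0.0021, Cldn3 from -0.57 to 5.64, Cldn4 from -0.83 to 0.67 (0.06 in between), Ocln from -0.80 to 0.23, Dsp from -1.24 to 0.30 and Ovol2 from -0.22 to 0.77. Between clones and Cas9-GFP organoids Epcam ran from -0.013 to 0.17 and Dsp from -0.10 (also -0.06) to 0.36. Dsp ran from -1.44 to 0.076 between OSE organoids and tissue, and Cldn4 from -0.093 (also -0.08) to 0.69 between tumors and oviduct tissue.

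Replicate numbers gave no strong pairing of the libraries: deviations from the group means of same-numbered libraries correlated at r = 0.0104 to 0.139. No value for differently numbered libraries is set beside these, so they cannot decide whether libraries were paired. With the replicate block the counts of called genes were 6 higher in oviduct than OSE tissue, 0 between clones and Cas9-GFP organoids, 4 higher and 1 lower in oviductal organoids than in tissue, and 0 between mes and epi lines blocked by deposited sample, as without it. Depth limits Cldn6, Ovol2 and Esrp1, which were at 3 counts or fewer in 23, 9 and 4 libraries.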

Other observations

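Cdh1 was at 1227 to 1364 CPM in the C57BL/6 oviductal organoids and at 451 to 544 CPM in the Cas9-GFP oviductal organoids, with no overlap, while Epcam (329 to 444 CPM and 409 to 527 CPM) overlapped. Cldn4, Cldn7, Esrp1 and Ovol2 were also higher in the C57BL/6 lines with no overlap, while Cldn3, Cldn6, Ocln and Dsp overlapped. The share of all genes with no overlap was not counted here, so the difference cannot be called particular to these genes. This pair of groups was looked at after the values were seen and was not tested. The secretory markers Ovgp1 and Pax8 summed to 14822 to 23112 CPM in the former and 234 to 247 CPM in the latter.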
